A study of Rattus norvegicus with 6 samples.

Results

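The genes described here are a set named for DNA replication and cell division, from the licensing factors that load onto origins to the kinases and motors of mitosis. They were chosen by symbol: 38 were named, and 37 of the 25399 genes in the count matrices carried one of those symbols, while Ccnb2 was not analysed here. Of the 37, 14 were counted as replication members and 19 as mitosis members, and 4 (Hmgb2, Stmn1, Cks1b and Cks2) were kept on neither side because they are not bound to 1 phase. The choice of symbols used no measured value, but it was made with earlier results of these data known.

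Single-cell expression was read in brain tissue of Sprague Dawley rats, with 6 droplet libraries that count molecules (UMIs) at transcript 3′ ends. A sham operation and a pontine infarction were compared, each with 3 libraries, and postnatal day 21 is given for all of them. According to the series title the tissue was the pons, a stretch of brainstem crossed by the motor tracts, after stroke. No genetic change and no drug is named for either group, and how long after the infarction the cells were taken is not given in the sources used here. Whether a library holds 1 animal or a pool is not stated, so the p-values speak of the spread among libraries, which may be technical.

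A dividing cell licenses its origins with the Mcm2-7 helicase, copies its DNA with Pcna as the sliding clamp, and needs ribonucleotide reductase and thymidylate synthesis for building blocks. Cyclin E starts that phase, cyclin A and cyclin B with Cdk1 drive the cell into mitosis, and the anaphase-promoting complex with Cdc20 and Ube2c ends it. In the adult brain most neurons and mature oligodendrocytes do not divide, microglia renew themselves slowly and multiply after injury, and oligodendrocyte precursors keep dividing. Replication genes are classically driven by E2F factors, and mitosis genes through CCAAT boxes and cell cycle homology region (CHR) elements. Promoters of both kinds are therefore shown.

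Promoter sequence came from RefSeq on the GRCr8 build, as the 250 bases before each transcript start, and 30 of the 37 members had an entry. Capitals mark matches, on either strand, to an E2F site (TTTCCCGC, TTTGGCGC, TTTCGCGC or TTTGCCGC), a CCAAT box (CCAAT) or a CHR element (TTTGAA). Pcna is the replication member with the highest level and an entry, and Mki67, Top2a and Cdk1 are the mitosis members with the highest levels and an entry. Mcm6 was added as another replication member after its motifs were seen. Pcna lies at chr3:139955821-139956070 (minus strand), Mcm6 at chr13:42404353-42404602 (minus), Mki67 at chr1:199952594-199952843 (minus), Top2a at chr10:84473094-84473343 (minus) and Cdk1 at chr20:19265043-19265292 (plus).
Pcna: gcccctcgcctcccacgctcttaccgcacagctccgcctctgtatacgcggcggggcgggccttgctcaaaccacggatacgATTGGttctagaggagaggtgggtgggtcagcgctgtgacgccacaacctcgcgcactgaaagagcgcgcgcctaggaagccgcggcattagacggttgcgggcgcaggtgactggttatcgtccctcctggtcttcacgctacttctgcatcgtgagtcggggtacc
Mcm6: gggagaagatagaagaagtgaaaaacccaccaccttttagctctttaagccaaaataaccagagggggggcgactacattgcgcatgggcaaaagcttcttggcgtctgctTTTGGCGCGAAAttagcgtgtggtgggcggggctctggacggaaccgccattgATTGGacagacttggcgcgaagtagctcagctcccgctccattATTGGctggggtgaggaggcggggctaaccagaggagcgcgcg
Mki67: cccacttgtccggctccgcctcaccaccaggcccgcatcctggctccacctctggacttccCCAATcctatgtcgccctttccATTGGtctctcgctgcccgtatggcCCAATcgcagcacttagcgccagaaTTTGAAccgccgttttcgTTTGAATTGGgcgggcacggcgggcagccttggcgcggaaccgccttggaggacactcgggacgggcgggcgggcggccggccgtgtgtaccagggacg
Top2a: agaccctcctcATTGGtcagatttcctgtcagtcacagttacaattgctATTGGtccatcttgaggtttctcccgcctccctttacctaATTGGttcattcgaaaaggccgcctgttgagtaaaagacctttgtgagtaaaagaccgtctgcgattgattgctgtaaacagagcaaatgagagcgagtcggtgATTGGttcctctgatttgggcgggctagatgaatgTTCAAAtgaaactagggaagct
Cdk1: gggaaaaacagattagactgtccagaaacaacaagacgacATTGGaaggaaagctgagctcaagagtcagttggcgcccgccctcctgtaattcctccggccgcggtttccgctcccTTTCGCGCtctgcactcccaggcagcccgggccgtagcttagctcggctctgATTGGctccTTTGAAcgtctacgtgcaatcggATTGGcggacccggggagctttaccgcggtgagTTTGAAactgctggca
The Mcm6 window held 2 overlapping E2F matches, 139 to 132 and 135 to 128 bases before the start. The Mki67 window held CHR matches 117 to 112 and 99 to 94 bases before the start, and the nearer one shares a base with a CCAAT box at 94 to 90. The Top2a window held 1 CHR match, 22 to 17 bases before the start, and Cdk1 held 2, at 72 to 67 and 16 to 11, together with an E2F match at 133 to 126.

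Over all members with an entry, an E2F match was found in 5 of 11 replication members and 1 of 15 mitosis members, against 1.81% of the 27457 promoters searched. A CCAAT box was found in 7 of 11 replication and 13 of 15 mitosis members, against 34.3% of promoters. A CCAAT box together with a CHR match was found in no replication member and 6 of 15 mitosis members, against 5.76% of promoters. Of the 4 members of neither side, 1 had an E2F match, 4 a CCAAT box and 3 a CCAAT box together with a CHR match, so that pair was not particular to the mitosis members. A match is a string of letters and not a measured site, and a window with no match says only that these letters are absent from it.

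The libraries held 56416475 to 69924334 UMIs each in 6399 to 8649 cell barcodes. After filtering, 37853 cells were kept, 18784 from sham and 19069 from infarction libraries, with a median of 7286.5 to 9562 UMIs per cell. Any pair of libraries shared 8 to 21 barcodes. Mitochondrial genes took a median of 9.66% to 10.2% of a cell's UMIs in sham libraries and 5.59% to 7.81% in infarction libraries. With at most 10% allowed, microglia-like cells again gave 36 members higher and 1 lower. Cell classes were rebuilt by clustering without the members and other cell cycle genes, and named "-like" from marker genes alone. The mix differed widely: smooth muscle-like cells numbered 8472 in sham and 1 in infarction libraries, and neutrophil-like cells 69 and 4429. Phagocytic macrophage-like cells numbered 0 and 4985. Microglia-like cells were plentiful in both: sham 1 to 3 held 404, 1130 and 1771 of them, and infarction 1 to 3 held 841, 1694 and 991. Levels below are CPM, the UMIs of a gene as a share of all UMIs of that library's cells in the class named, scaled to the usual common total. Changes are edgeR log2 fold changes (infarction against sham) with their SE, and a gene was called at a Benjamini-Hochberg adjusted p under 0.05 over all genes tested.

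Summed over all cells, the members were higher after infarction almost without exception. Of 37 tested, 36 were called higher and 0 lower, where 33.2% of the 14613 genes tested were called higher and 38.1% lower. The median log2 change of the members was 2.67, and that of all genes tested was -0.13. Mki67, the antigen used to stain dividing cells, stood at 6.01, 4.71 and 8.97 CPM in sham 1 to 3 and 80.6, 48.8 and 49.3 CPM in infarction 1 to 3 (log2 change 3.66). Stmn1, which destabilises microtubules and is also abundant in neurons, was the member not called, at 89.6, 95.3 and 143 CPM against 104, 89.6 and 92.4 CPM (log2 change 0.28, SE 0.19, adjusted p = 0.238). In sums over all cells, a change in the number of cells of a type and a change in RNA per cell cannot be told apart, so the classes follow.

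Microglia-like cells were 1 of 4 classes that every library filled with at least 20 cells. The members rose there in every role, with 1 exception. All 37 members were tested there, 36 were called higher after infarction and 1, Aurka, lower, where 32% of the 10373 genes tested were called higher and 31% lower. The members' median log2 change was 3.5, against -0.02 for all genes tested. For each of the 36 members called higher, every infarction library lay above every sham library. How many of all genes tested were separated in this way was not counted, so this adds nothing to the calls.

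**Figure D1:**
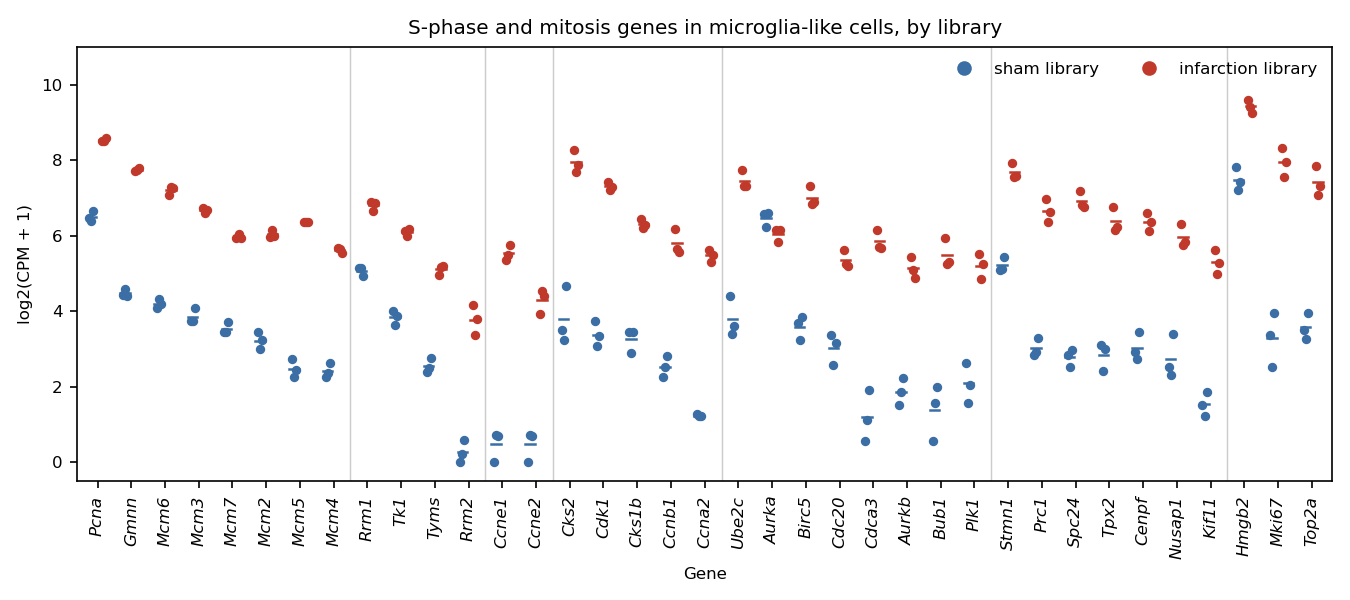
Level of each of the 37 members in microglia-like cells, as log2(CPM + 1) on the vertical axis, with 1 point per library (3 sham, 3 infarction), a short line at the group mean, and members grouped by role. The infarction points lie above the sham points for 36 members, and Aurka is the member where they lie below.

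Among the licensing and fork genes, 8 of 8 were called higher in microglia-like cells, with a median log2 change of 3.01. Pcna, the sliding clamp, stood at 88.2, 83.3 and 99.4 CPM in sham 1 to 3 and 361, 366 and 384 CPM in infarction 1 to 3 (log2 change 2.02, SE 0.084, adjusted p = 8.41e-08). It had the smallest change of the role. Gmnn, geminin, which blocks repeated licensing, stood at 20.7, 22.9 and 20.2 CPM and then 211, 213 and 220 CPM (log2 change 3.32, SE 0.086, adjusted p = 1.41e-08). Mcm6, a helicase subunit, stood at 16.0, 19.1 and 17.2 CPM and then 134, 155 and 152 CPM (log2 change 3.05, SE 0.10, adjusted p = 3.72e-08). Within each group the 3 libraries were close together for all 3 genes. Mcm5 had the largest change of the role (log2 change 4.19).

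The 4 genes of nucleotide supply were all called higher, with a median log2 change of 2.53. Rrm1, the large subunit of ribonucleotide reductase, stood at 34.4, 34.3 and 29.5 CPM in sham and 118, 99.6 and 116 CPM in infarction libraries (log2 change 1.76, SE 0.10, adjusted p = 5.33e-07). Tk1, the thymidine salvage kinase, stood at 15.1, 11.4 and 13.7 CPM and then 68.5, 63.1 and 71.6 CPM (log2 change 2.35, SE 0.12, adjusted p = 2.27e-07). Both Tk1 and Tyms feed the thymidine nucleotide pool. Tyms, thymidylate synthase, stood at 4.24, 4.62 and 5.79 CPM and then 30.2, 34.9 and 36.0 CPM (log2 change 2.70, SE 0.15, adjusted p = 3.66e-07). Rrm2, the small subunit that limits ribonucleotide reductase, stood at 0, 0.165 and 0.508 CPM and reached 17, 9.43 and 12.8 CPM (log2 change 5.25). Its sham libraries held 6 UMIs together, so this fold rests on few molecules.

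Both cyclin E genes were near 0 in sham microglia-like cells. Ccne1 held 0, 4 and 6 UMIs in sham 1 to 3 and 523, 544 and 462 UMIs in infarction 1 to 3. That was 0, 0.66 and 0.609 CPM against 39.8, 44.2 and 53.4 CPM (log2 change 6.33, SE 0.27, adjusted p = 9.24e-08). Ccne2 held the same 0, 4 and 6 UMIs in sham libraries and 188, 274 and 175 UMIs in infarction libraries, or 14.3, 22.3 and 20.2 CPM (log2 change 5.05, SE 0.35, adjusted p = 1.71e-06). Ccne1 had the largest log2 change of any member in these cells.

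All 5 genes of the Cdk1 engine were called higher, with a median log2 change of 3.97. Cdk1, the kinase that starts mitosis, stood at 12.3, 7.43 and 9.14 CPM in sham and 169, 147 and 156 CPM in infarction libraries (log2 change 4.10, SE 0.14, adjusted p = 4.54e-08). Its small partner proteins rose with it. Cks2 stood at 10.4, 8.42 and 24.5 CPM and then 306, 204 and 235 CPM (log2 change 3.97, SE 0.46, adjusted p = 0.00109). Cks1b stood at 9.90, 6.44 and 9.85 CPM and then 85.9, 73.2 and 77.6 CPM (log2 change 3.18, SE 0.16, adjusted p = 2.01e-07), the smallest change of the role. Ccna2, cyclin A, had the largest (log2 change 5.01), from 1.41, 1.32 and 1.32 CPM to 48.4, 38.4 and 44.3 CPM.

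Of the 8 mitotic kinases, checkpoint and anaphase-promoting complex genes, 7 were called higher and 1 lower, with a median log2 change of 3.54. Ube2c, the ubiquitin-conjugating enzyme of the anaphase-promoting complex, stood at 20.3, 9.57 and 11.2 CPM in sham and 214, 158 and 159 CPM in infarction libraries (log2 change 3.83, SE 0.27, adjusted p = 3.26e-05). Birc5, survivin, stood at 11.8, 8.42 and 13.5 CPM and then 158, 114 and 117 CPM (log2 change 3.5, SE 0.21, adjusted p = 4.51e-06). Aurka, the spindle-pole kinase, went the other way. It stood at 93.8, 73.9 and 95.4 CPM in sham and 69.5, 56.5 and 70.2 CPM in infarction libraries, and the groups did not overlap (log2 change -0.43, SE 0.12, adjusted p = 0.0106). This call was lost without sham 3 (Aurka log2 change -0.36, edgeR adjusted p = 0.0594) and with doublets kept (Aurka log2 change -0.29, edgeR adjusted p = 0.0649). Aurka alone made up 43.1% of the mitosis members' UMIs in sham microglia-like cells and 3.65% after infarction. The largest change of the role was that of Cdca3, a trigger of mitotic entry (log2 change 4.91).

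All 7 spindle and kinetochore genes were called higher, with a median log2 change of 3.73. Prc1, which bundles the central spindle, stood at 6.13, 6.60 and 8.83 CPM in sham and 124, 80.7 and 97.8 CPM in infarction libraries (log2 change 3.73, SE 0.21, adjusted p = 2.47e-06). Spc24, a subunit of the Ndc80 kinetochore complex, stood at 6.13, 4.79 and 6.90 CPM and then 145, 112 and 107 CPM (log2 change 4.32, SE 0.18, adjusted p = 2.44e-07), the largest change of the role. Stmn1 had the smallest. It stood at 33.0, 34.0 and 42.3 CPM and then 243, 187 and 192 CPM (log2 change 2.48, SE 0.14, adjusted p = 9.42e-07), so it was called in this class though not over all cells.

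The 3 chromatin and proliferation antigen genes were all called higher, with a median log2 change of 3.90. Mki67 stood at 9.43, 4.79 and 14.4 CPM in sham and 320, 188 and 245 CPM in infarction libraries, a mean of 9.54 ± 4.82 against 251 ± 66.1 CPM (SD, n = 3; log2 change 4.64, SE 0.45, edgeR adjusted p = 0.00049). Top2a, the topoisomerase that untangles sister chromatids, stood at 10.4, 8.58 and 14.5 CPM and then 230, 134 and 157 CPM (log2 change 3.90, SE 0.31, adjusted p = 8.52e-05). Infarction 1 was the highest of the 3 infarction libraries for both, as it was for Cks2, Ube2c, Birc5 and Hmgb2. Hmgb2, a chromatin protein abundant in dividing cells, stood at 227, 147 and 171 CPM and then 778, 680 and 613 CPM (log2 change 1.93, SE 0.17, adjusted p = 6.82e-05). How the counting treated reads shared with near-identical copies of a gene, such as processed pseudogenes, is not given in the sources used here.

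The microglia-like cells also differed between groups in what else they expressed. The 14 microglia markers summed to 23286 to 28100 CPM in sham and 13448 to 15772 CPM in infarction libraries, and none was at 0. Single markers differed: Tmem119 stood at 912, 1035 and 1106 CPM in sham and 125, 150 and 207 CPM in infarction libraries. C1qb stood at 5929, 5165 and 6390 CPM and then 4739, 5740 and 5137 CPM. Border macrophage-like cells of the infarction libraries held C1qb at 5580, 5091 and 4950 CPM, and the whole list summed to 14560 to 16943 CPM there. The phagocytic macrophage markers summed to 42.9 to 81.0 CPM in sham and 8937 to 14404 CPM in infarction microglia-like cells. The part of these shifts in the members' change was not tested.

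Microglia-like cells fell into 3 main clusters, in which the groups had unequal shares, and a small cluster of 9 sham cells. A cluster led by Tmem119 and P2ry12, genes of resting microglia, held 71.8% of sham and 4.48% of infarction microglia-like cells. A cluster led by Ccl4, a chemokine gene, held 5.02% and 61.5%, and a cluster led by Anxa3, with a median of 1247 UMIs per cell, held 22.9% and 34.0%. Mki67 and Top2a were among the leading genes of the Ccl4-led cluster, and Ube2c and Birc5 among those of the Anxa3-led cluster, although the clustering did not use them. In the Tmem119-led cluster Mki67 stood at 1.71, 3.69 and 11.1 CPM in sham and 0, 36.8 and 33.3 CPM in infarction libraries, where it held 8, 78 and 72 cells. In the Ccl4-led cluster Mki67 stood at 62.9, 0 and 40.9 CPM and then 333, 213 and 274 CPM. Fitted alone, the Tmem119-led cluster gave 12 members higher and 1 lower of 19 tested, where 5.28% of genes were called higher and 4.26% lower, with Cdk1 called (log2 change 1.99, adjusted p = 0.00184) and Mki67 not (log2 change 2.07, adjusted p = 0.195). Without the Anxa3-led cluster, 36 members were called higher and 1 lower of 37, as with it.

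Border macrophage-like cells, which carry markers of perivascular and meningeal macrophages such as Mrc1 and Lyve1, rose for most members too. They numbered 136, 130 and 118 in sham and 76, 74 and 55 in infarction libraries. Of 34 members tested, 31 were called higher and 0 lower, where 15.1% of the 6226 genes tested were called higher and 14.1% lower, and Ccne1, Ccne2 and Rrm2 were too low to test. The median log2 change was 2.10, against -0.04 for all genes tested. The members not called were Aurka (log2 change 0.66, adjusted p = 0.133), Mcm4 (log2 change 1.2, adjusted p = 0.06) and Mcm7 (log2 change 0.90, adjusted p = 0.0528).

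On the mitosis side, 18 of 19 members were called higher in border macrophage-like cells, with a median log2 change of 2.55. Mki67 stood at 24.3, 13.7 and 36.8 CPM in sham and 166, 134 and 129 CPM in infarction libraries (log2 change 2.55, SE 0.24, adjusted p = 2.36e-07). Ube2c stood at 17.9, 1.14 and 16.1 CPM and then 189, 115 and 109 CPM (log2 change 3.61, SE 0.51, adjusted p = 0.00223), the largest change in this class. Sham 2 was the lowest library for both. Cdk1 stood at 24.3, 3.43 and 21.8 CPM and then 104, 91.4 and 63.5 CPM (log2 change 2.45, SE 0.42, adjusted p = 0.00211). Cenpf, a kinetochore protein, stood at 6.40, 5.72 and 5.74 CPM and then 80.6, 47.5 and 54.4 CPM (log2 change 3.37, SE 0.32, adjusted p = 1.85e-07). Outside both sides, Cks2 stood at 21.8, 12.6 and 62.0 CPM and then 316, 361 and 381 CPM (log2 change 3.47, SE 0.49, adjusted p = 0.00554). For each of these genes every infarction library lay above every sham library. Separation of this kind was not counted over all genes tested, so it adds nothing to the calls.

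On the replication side, 9 of 11 members tested were called higher in border macrophage-like cells, with a median log2 change of 1.2. Pcna stood at 106, 85.8 and 97.6 CPM in sham and 220, 226 and 156 CPM in infarction libraries (log2 change 1.09, SE 0.17, adjusted p = 8.26e-05). Gmnn stood at 76.8, 42.3 and 97.6 CPM and then 166, 154 and 99.7 CPM (log2 change 1.01, SE 0.27, adjusted p = 0.0157), with sham 3 and infarction 3 close together. Mcm6 stood at 25.6, 33.2 and 51.7 CPM and then 85.7, 99.7 and 65.3 CPM (log2 change 1.22, SE 0.24, adjusted p = 0.000973). Tyms had the largest change of this side (log2 change 1.90), from 7.68, 5.72 and 6.89 CPM to 25.5, 27.3 and 21.8 CPM. The phagocytic macrophage markers summed to 393 to 827 CPM in sham and 2850 to 7857 CPM in infarction border macrophage-like cells. The microglia markers, some of which macrophages also carry, summed to 14748 to 16384 and 14560 to 16943 CPM there, and the part of either list in the result was not tested. When cell cycle genes were allowed into the clustering, 20 members could be tested in this class and 17 were called higher, where 14.1% of genes were called higher and 12.6% lower.

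T or NK-like cells changed less evenly. They numbered 117, 145 and 81 in sham and 66, 121 and 100 in infarction libraries. Of 16 members tested, 5 were called higher and 0 lower, where 4.84% of the 4693 genes tested were called higher and 2.71% lower. The members' median log2 change was 1.31, against -0.01 for all genes tested. Cks2 stood at 8.29, 26.0 and 21.1 CPM in sham and 187, 225 and 270 CPM in infarction libraries (log2 change 3.56, SE 0.29, adjusted p = 7.48e-07). It did not exceed the level in neutrophil-like cells of the same infarction libraries (log2 difference -0.11, not called). Cdc20, the activator of the anaphase-promoting complex, held 1, 5 and 0 UMIs in sham and 7, 14 and 33 UMIs in infarction libraries (log2 change 3.20, SE 0.63, adjusted p = 0.00433). Birc5 held 0, 5 and 0 UMIs and then 8, 18 and 49 UMIs (log2 change 3.90, SE 0.85, adjusted p = 0.0266). These 2 calls rest on few molecules, and infarction 3 was the highest library for both.

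The other 2 members called in T or NK-like cells were from the replication side, which had 2 of 7 called and a median log2 change of 0.44. Pcna stood at 89.2, 104 and 75.0 CPM in sham and 187, 126 and 173 CPM in infarction libraries (log2 change 0.85, SE 0.21, adjusted p = 0.015). It was called lower than in neutrophil-like cells of the same infarction libraries (log2 difference -1.68). Gmnn stood at 29.0, 26.0 and 16.4 CPM and then 79.6, 32.6 and 59.2 CPM (log2 change 1.19, SE 0.34, adjusted p = 0.0346). The helicase genes gave no call. Mcm6 stood at 27, 38.4 and 30.5 CPM and then 32.9, 25.2 and 43.6 CPM (log2 change 0.07). Mcm3 stood at 33.2, 38.4 and 44.5 CPM and then 35.7, 28.2 and 35.8 CPM (log2 change -0.19). The groups overlapped for both.

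Mki67 and Ube2c were not called in T or NK-like cells, and their infarction libraries were far apart. Mki67 stood at 12.4, 20.3 and 0 CPM in sham and 22.0, 46.0 and 153 CPM in infarction libraries (log2 change 2.58, SE 1.08, adjusted p = 0.288). Ube2c stood at 0, 11.3 and 0 CPM and then 60.4, 77.1 and 184 CPM (log2 change 4.31, SE 0.95, adjusted p = 0.0692). Infarction 3 was again highest, and for both genes every infarction library lay above every sham library. Such separation was not counted over all genes tested, so it does not stand in for a call. The phagocytic macrophage markers summed to 16.4 to 46.3 CPM in sham and 446 to 694 CPM in infarction T or NK-like cells, next to 4331 to 5212 and 3751 to 4648 CPM for the class's own markers. The microglia markers summed to 31.1 to 1228 and 229.7 to 665 CPM, and the part of either list was not tested. Leaving out 1 library at a time gave 3 to 10 members called higher (3 without sham 3, 10 without infarction 1), and keeping doublets gave 1.

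Endothelial-like cells gave little. They numbered 81, 216 and 56 in sham and 41, 53 and 75 in infarction libraries, and only 4 members were high enough to test. Pcna was called higher (log2 change 0.79, SE 0.18, adjusted p = 0.0123), where 5.05% of the 5937 genes tested were called higher and 5.52% lower. Hmgb2 (log2 change 0.23), Rrm1 (log2 change -0.03) and Stmn1 (log2 change -0.35) were not called. Stmn1 stood at 586, 571 and 579 CPM in sham and 480, 256 and 496 CPM in infarction libraries. The phagocytic macrophage markers summed to 30.7 to 170 CPM in sham and 1465 to 6278 CPM in infarction endothelial-like cells, and the microglia markers to 63.8 to 463 and 195.5 to 2156 CPM. The part of either list in the Pcna call was not tested. Pcna in endothelial-like cells lay below its level in neutrophil-like cells of the same infarction libraries (log2 difference -2.47). The median log2 change of the 4 members was 0.10, against -0.0033 for all genes tested.

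**Figure D2:**
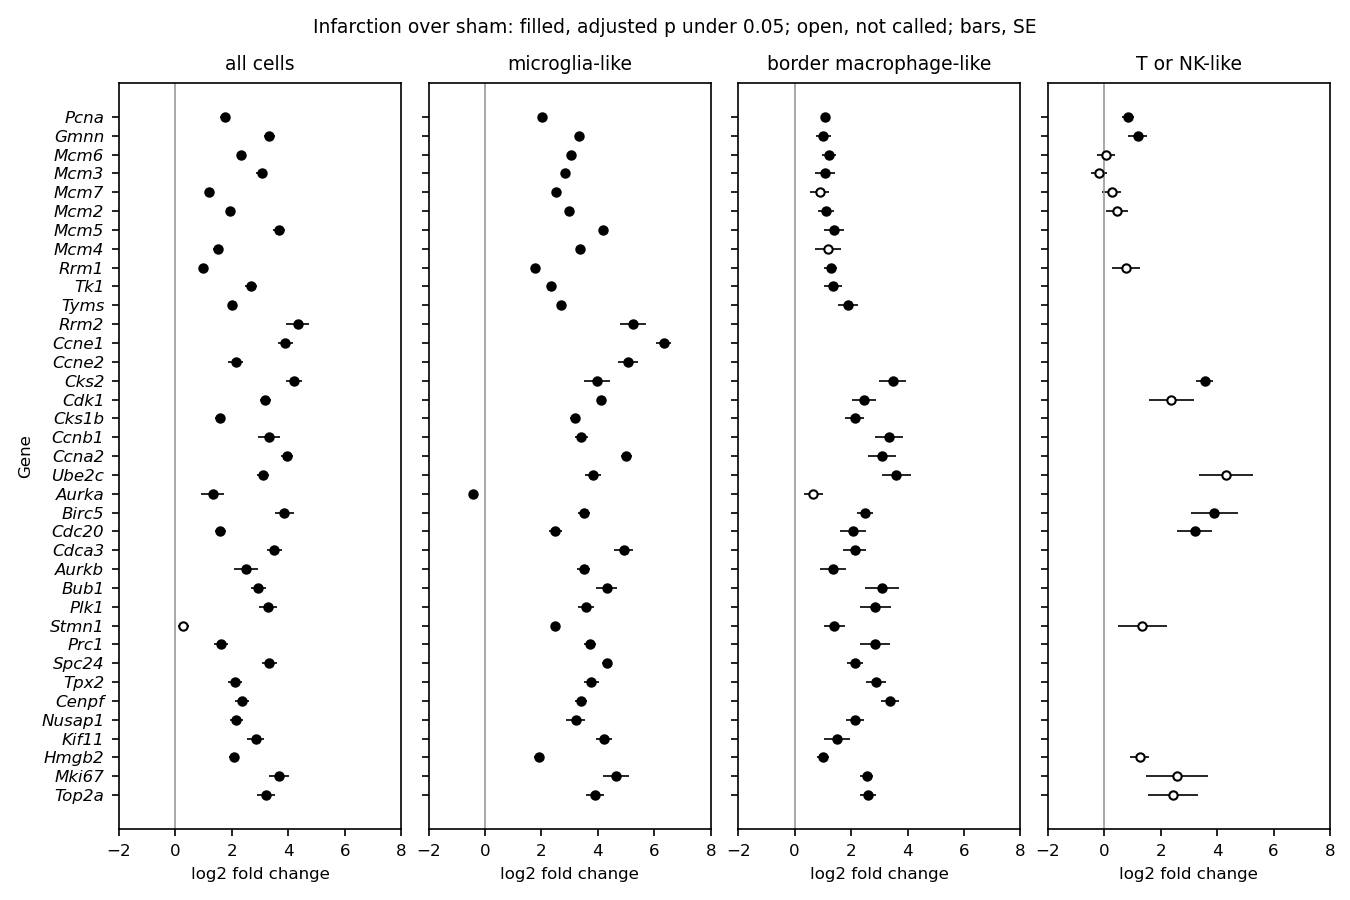
Log2 fold change (infarction against sham) of each member over all cells and in microglia-like, border macrophage-like and T or NK-like cells, 1 panel each, with bars of 1 SE, filled points where the adjusted p was under 0.05 and open points elsewhere. The members called higher number 36 over all cells, 36 in microglia-like cells, 31 in border macrophage-like cells and 5 in T or NK-like cells.

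The difference between classes was tested directly for the 2 tested classes with the most cells, microglia-like and T or NK-like. Of 37 members, 10 changed more upward in microglia-like cells and 1 less, where 10.3% of the 8507 genes tested were called in the first direction and 6.65% in the second. Without infarction 3 the 10 became 18. Of the members called, Ccne1, Ccna2, Mcm4, Prc1 and Aurka were too low to test in T or NK-like cells alone. They entered this fit through the microglia-like counts, and their differences rest on low T or NK-like counts. The replication side held most of the calls, with 8 of 14 members called and 7 of the 8 licensing and fork genes. Mcm3 had the smallest p: its log2 change was 3.02 larger in microglia-like cells (SE 0.31, adjusted p = 3.88e-07). The mitosis side had 2 of 19 called in that direction, Ccna2 and Prc1. Several differences on that side had wide SEs, such as Mki67 (difference 2.21, SE 1.67) and Plk1 (difference -6.15, SE 2.78). A missing call there does not show equal change, and the 2 sides were not tested against each other. Aurka was called the other way, with a log2 change 2.21 smaller in microglia-like cells (difference -2.21, SE 0.45, adjusted p = 0.00121). In T or NK-like cells Aurka stood at 4.15, 6.78 and 9.37 CPM in sham and 16.5, 19.3 and 28.1 CPM in infarction libraries, the opposite order to microglia-like cells.

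The share of cells with a UMI was compared after thinning each cell to 2000 UMIs and leaving out shallower cells. In microglia-like cells, Mki67 was found in 0.639%, 0.240% and 0.813% of sham cells and 28.0%, 16.6% and 22.1% of infarction cells. The means were 0.564% ± 0.294 and 22.2% ± 5.69 (SD, n = 3; exact two-sided permutation test p = 0.1, adjusted 0.125 over 10 tests), and 0.1 is the smallest p that 3 against 3 libraries can give. Top2a was found in 0.465% ± 0.205 and 17.9% ± 4.25 (SD, n = 3; exact permutation p = 0.1). Before thinning, the Mki67 shares were 0.495%, 0.619% and 1.41% of sham and 49.9%, 25.9% and 31.9% of infarction cells. Median depth in the class was 4924 to 5125 UMIs in sham libraries and 14394, 4204 and 5834 in infarction 1 to 3. Thinning left out 805 sham and 823 infarction microglia-like cells.

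Mature neutrophils do not divide, so neutrophil-like cells were taken as the background. There Mki67 was found in 1.52%, 1.91% and 1.22% of thinned infarction cells, with median depths of 2202, 1613 and 1899 UMIs. The microglia-like share lay far above that in each infarction library. Border macrophage-like cells went from 1.69% ± 0.952 to 11.3% ± 1.72 for Mki67, and T or NK-like cells from 1.15% ± 1.04 to 5.11% ± 2.14 (SD, n = 3; exact permutation p = 0.1 for each). Thinned to 1000 UMIs, the T or NK-like comparison had an exact permutation p of 0.7. With cell cycle genes in the clustering, the Top2a share of border macrophage-like cells was 0.265% and 0.538% (exact permutation p = 1). In endothelial-like cells Mki67 was found in 0.498% and 1.11% (exact permutation p = 1).

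A stricter count asked for at least 2 mitosis members in a thinned cell. In microglia-like cells this held for 1.28%, 0.959% and 1.40% of sham and 49.3%, 34.7% and 37.9% of infarction cells. In border macrophage-like cells it held for 2.34%, 0.813% and 3.6% and then 20%, 19.1% and 14.6%. In neutrophil-like cells of the infarction libraries it held for 1.22%, 2.29% and 0.488%. At least 2 replication members were found in 4.83% ± 1.03 of sham and 57.7% ± 2.53 of infarction microglia-like cells (SD, n = 3). In infarction 1 to 3, 34.7%, 27.5% and 30% of microglia-like cells held both, 25.9%, 29.0% and 26.0% the replication side alone, and 14.6%, 7.19% and 7.88% the mitosis side alone.

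**Figure D3:**
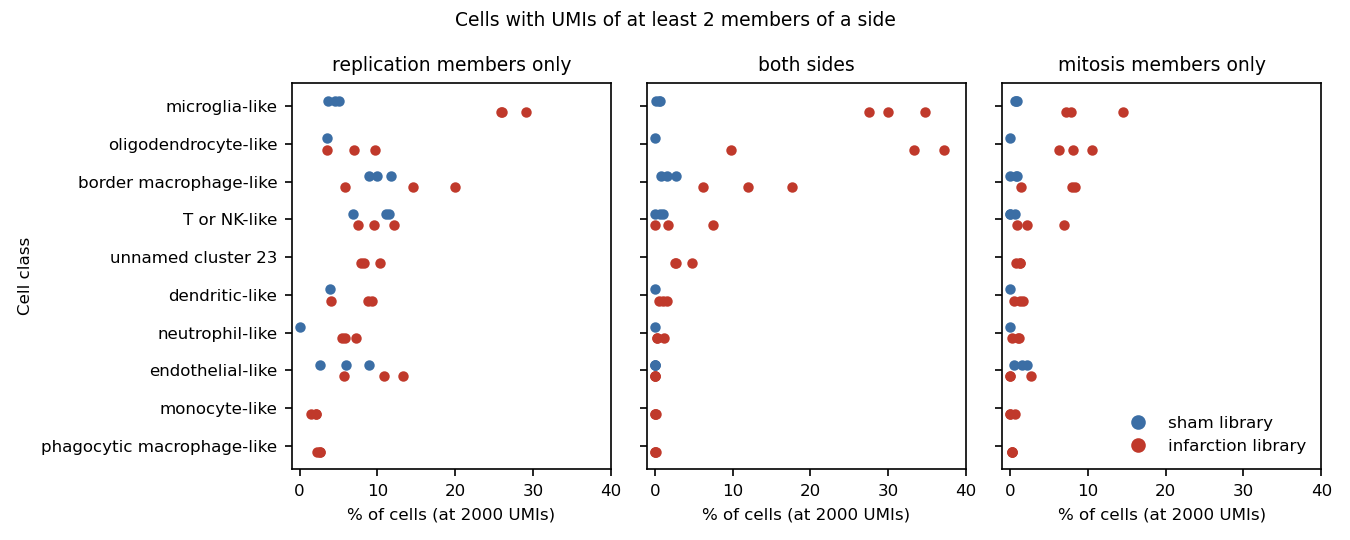
Share of cells, in percent, with UMIs of at least 2 replication members alone (left panel), of both sides (middle) and of at least 2 mitosis members alone (right), in cells thinned to 2000 UMIs, by class, with 1 point per library. The infarction points of microglia-like cells lie at 27.5% to 34.7% for both sides, and those of monocyte-like and phagocytic macrophage-like cells lie near 0.

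In the microglia-like clusters, the cells with at least 2 mitosis members were 48.4%, 34.9% and 39.2% of the Ccl4-led and 59%, 42.6% and 49.7% of the Anxa3-led microglia-like cells in infarction 1 to 3. In the Tmem119-led cluster they were 0%, 5.41% and 1.49%. These shares cover only the cells deep enough for thinning, which left out 823 infarction microglia-like cells. The Anxa3-led cluster had a median of 1247 UMIs per cell over both groups, below the depth of thinning. Its shares therefore describe its deeper cells only, and they do not rank it above the Ccl4-led cluster. The infarction microglia-like cells with at least 2 mitosis members numbered 375, 405 and 293. Their median depth was 19078, 11994 and 13230 UMIs, against 13275, 6532 and 7115 UMIs in the cells without. Their median doublet scores were 0.0317, 0.0293 and 0.0252 against 0.0288, 0.0231 and 0.0236. Tmem119 stood at 106 ± 10.0 CPM in them and 213 ± 66.1 CPM in the cells without (SD, n = 3). These cells were selected by their mitosis members, so the values are a description.

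Across the infarction libraries, microglia-like cells held most of the mitosis members' UMIs, 68.1% ± 8.93 (SD, n = 3). Oligodendrocyte-like cells held 8.56% ± 2.19 and border macrophage-like cells 3.29%. For the replication members, microglia-like cells held 51.9% and phagocytic macrophage-like cells 13.8%. In sham libraries smooth muscle-like cells, the most numerous class, held 47.4% of the mitosis members' UMIs and microglia-like cells 21.1%. Mki67 nonetheless stood at only 5.79, 4.23 and 4.5 CPM in the smooth muscle-like cells.

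**Figure D4:**
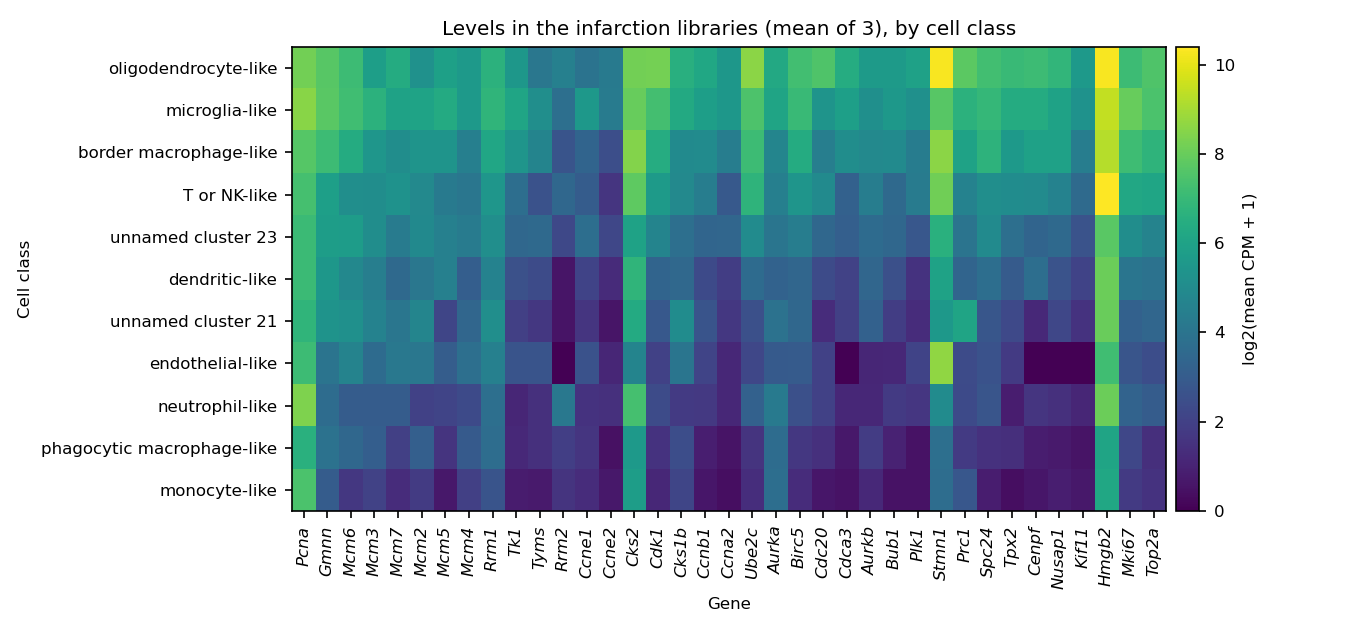
Mean level of each member over the 3 infarction libraries, as log2(mean CPM + 1) by colour, with the members in columns by role and, in rows, the 11 classes or unnamed clusters that had at least 20 cells in every infarction library. Microglia-like and oligodendrocyte-like cells hold high levels across both sides, and monocyte-like, neutrophil-like and phagocytic macrophage-like cells hold Pcna but little Mki67.

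Each class of the infarction libraries was also compared with neutrophil-like cells of the same library. Microglia-like cells had 34 of 37 members called higher and 2 lower, where 42.8% and 34.7% of all genes tested were called. The 2 lower were Pcna (log2 difference -0.69) and Rrm2 (log2 difference -1.15), and Cks2 was not called (log2 difference -0.22). Oligodendrocyte-like cells had 33 of 37 higher and 3 lower (40.2% and 33.5% of all genes). Border macrophage-like cells had 30 of 35 higher and 2 lower (36.1% and 37.3% of all genes). T or NK-like cells had 22 of 28 higher and 2 lower (33.6% and 34.9%). The 2 lower were Pcna and Rrm2 in both classes. Cks2 was not called in either class (log2 difference 0.31 and -0.11). Against oligodendrocyte-like cells, whose own members are high, microglia-like cells had 7 of 37 members higher and 3 lower (21.6% and 24.1% of all genes). Against the same cells, border macrophage-like cells had 2 of 36 higher and 14 lower (23.1% and 23.3%), and T or NK-like cells had 0 of 34 higher and 15 lower (22.2% and 24%). An unnamed cluster of infarction libraries led by Mmp12, a macrophage elastase, had 28 of 37 higher (40.5%), with Mki67 at 33.5, 23.9 and 42.4 CPM. It also had 1 mitosis member, 2 replication members and 2 members of neither side called lower than in neutrophil-like cells (36.1% of all genes).

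The other myeloid classes had fewer members above the neutrophil-like level. The main neutrophil-like cluster was shallow, with a median of 1923 UMIs per cell. That of monocyte-like cells had 9386 and the main phagocytic macrophage-like cluster 13481. The part of depth or of free RNA in the members called lower was not tested. Monocyte-like cells had 0 of 21 members called higher and 18 lower (35.8% and 33.9% of all genes). Phagocytic macrophage-like cells, the most numerous class after infarction, had 1 of 36 higher and 24 lower (39.4% and 33.7%). Dendritic-like cells had 10 of 33 higher and 4 lower (38.4% and 33.4%). Mki67 stood at 3.07, 2.96 and 1.24 CPM in monocyte-like cells, 3.27, 2.83 and 4.87 CPM in phagocytic macrophage-like cells and 12.5, 9.48 and 4.85 CPM in neutrophil-like cells of infarction 1 to 3. Pcna did not follow Mki67: it stood at 403, 303 and 301 CPM in neutrophil-like, 198, 166 and 164 CPM in monocyte-like and 109, 96.1 and 80.0 CPM in phagocytic macrophage-like cells. The monocyte-like result turned round with a finer clustering, which gave 19 of 37 members higher and 5 lower (37.4% and 34.2% of all genes). There phagocytic macrophage-like cells had 4 of 34 higher and 13 lower (40% and 35.7%).

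The oligodendrocyte-like cells of the infarction libraries were mostly of 1 cluster, which held high levels of the members. Of 497 such cells, 475 (95.6%) came from a cluster led by Vgf and Gal, genes of secreted neuropeptides, with Nfasc, Gap43, Mag, Cldn11 and Mbp also among its leading genes and a median of 1494 UMIs per cell. In it, Mki67 stood at 158, 170 and 108 CPM, Cdk1 at 346, 404 and 178 CPM, and Ube2c at 308, 543 and 364 CPM in infarction 1 to 3. At least 2 mitosis members were found in 46.3%, 47.5% and 18.6% of the 54, 59 and 97 cells deep enough to use, and in 0 of 8, 6 and 39 sham cells of the cluster.

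The Vgf-led cluster held genes of the oligodendrocyte lineage and of myelin. Sox10, a factor of the whole oligodendrocyte lineage, stood at 181, 129 and 181 CPM, Olig1 at 463, 308 and 524 CPM and Mbp, the myelin basic protein gene, at 148, 645 and 3312 CPM in infarction 1 to 3. Its microglia markers summed to 403 to 514 CPM its neutrophil markers to 514 to 1320 CPM, its neuron markers to 519.9 to 1860 CPM and its phagocytic macrophage markers to 1644 to 5073 CPM. The part of RNA from those cells was not tested. The other oligodendrocyte-like cluster, led by Apod, had 22 infarction cells with Mbp at 5810 to 8792 CPM, and there Mki67, Top2a, Cdk1 and Ube2c were all at 0. In infarction libraries the precursor markers summed to 1434 to 2357 CPM in the Vgf-led cluster and 940 to 2001 CPM in the Apod-led cluster. They summed to 6169 to 8510 CPM in the 6 precursor-like cells. The oligodendrocyte-like class was not compared between groups, because sham 1 held 17 of its cells. The name depended on the clustering: with doublets kept or with cell cycle genes let in, the cluster led by Gal and Vgf was named oligodendrocyte precursor-like, and with a finer clustering it stayed unnamed. The precursor-like class of the clustering with cell cycle genes had at least 2 mitosis members in 3.25% ± 3.40 of sham and 53.7% ± 15.3 of infarction cells (SD, n = 3). That clustering could use the members, and how far this shaped the shares was not tested. With doublets kept, the means were 3.37% and 53.7%. In the main clustering the precursor-like class held 195 sham and 6 infarction cells, and the Vgf-led cluster 133 and 475. The sham and infarction cells compared may thus be of different kinds, so the shares do not show a change within precursors.

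Other classes held members in patterns of their own. Ependymal-like cells held Prc1 at 232, 168 and 395 CPM in sham and 186, 48.2 and 46.8 CPM in infarction libraries, and Aurkb, the chromosomal passenger kinase, at 155, 302 and 232 CPM and then 191, 98.4 and 60.2 CPM. Those 2 genes made up 75.4% of the 674 mitosis UMIs of the class in sham libraries and 79.4% of the 233 in infarction libraries, while Mki67 had 17 and 2 UMIs. Neuron-like cells of sham libraries held Stmn1 at 2614, 2051 and 1513 CPM with Mki67 at 0 in all 3. Oligodendrocyte precursor-like cells held Mki67 at 6.22, 87.2 and 15.2 CPM in sham 1 to 3, from 83, 57 and 55 cells, so 1 library stood apart.

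The balance of the 2 sides was taken as the log2 ratio of replication to mitosis UMIs, with no test, in classes with at least 100 such UMIs in the library. In microglia-like cells it was 0.04, 0.44 and 0.02 for sham 1 to 3, then -0.67, -0.12 and -0.21 for infarction 1 to 3. The replication members summed to 223 ± 9.89 CPM in sham and 1380 ± 34.5 CPM in infarction libraries, and the mitosis members to 201 ± 37.9 and 1757 ± 346 CPM (SD, n = 3). Both sums were higher after infarction, and the mitosis sum varied more between libraries. Without Aurka, which is high in sham microglia-like cells, the balance was 0.88, 1.35 and 0.79 and then -0.62, -0.06 and -0.15.

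In border macrophage-like cells the balance was 0.46, 1.61 and 0.61 for sham 1 to 3, then -0.63, -0.31 and -0.80 for infarction 1 to 3. In T or NK-like cells it was 1.66, 1.24 and 2.78 and then 0.56, -0.48 and -0.86. The groups did not overlap in any of these 3 classes. With cell cycle genes in the clustering, the mean in border macrophage-like cells was 2.46 in sham and 1.33 in infarction libraries. Within the infarction libraries, oligodendrocyte-like cells leaned furthest to mitosis, at -0.95, -1.25 and -1.55. Monocyte-like cells at 2.45 to 2.84, neutrophil-like cells at 2.06 to 2.68 and phagocytic macrophage-like cells at 2.01 to 2.20 leaned to replication. Pcna, a replication member, was high in these classes while Mki67 was low, so the lean is no measure of cells in S phase.

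**Figure D5:**
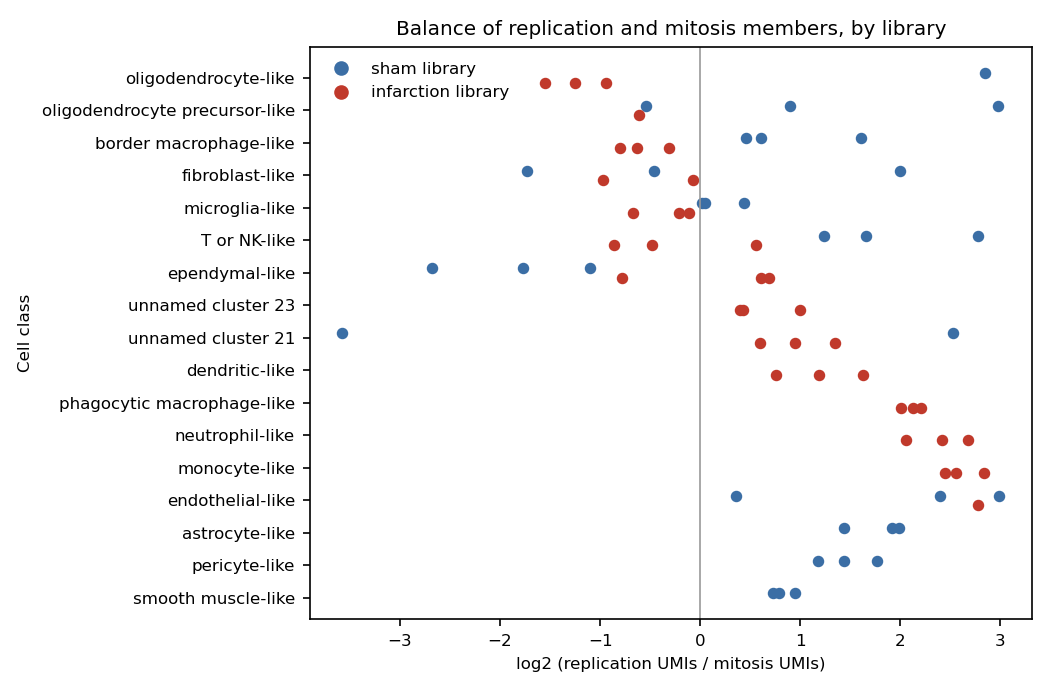
Log2 ratio of replication to mitosis UMIs by class, with 1 point per library that held at least 100 such UMIs and a line at 0 where both sides are equal. Infarction points of microglia-like and border macrophage-like cells lie below 0 and their sham points above it, and neutrophil-like, monocyte-like and phagocytic macrophage-like points lie at 2.01 or higher.

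Other genes of the same pathways, listed apart from the members, were counted the same way. Of 42 other replication genes, 40 were tested in microglia-like cells and 40 were called higher, with a median log2 change of 2.85. Of 56 other mitosis genes, 54 were tested and 53 were called higher, with a median log2 change of 3.34. Over all genes tested in these cells, 32% were called higher. The smallest p-values belonged to Dut, which clears dUTP from the nucleotide pool (log2 change 4.04, adjusted p = 3.72e-08), Gins1, a part of the replicative helicase (log2 change 3.45), Cdca8, borealin of the chromosomal passenger complex (log2 change 3.45), and Mybl2, a transcription factor of the cell cycle (log2 change 6.52). In border macrophage-like cells 15 of 23 replication and 21 of 26 mitosis genes were called higher, where 15.1% of all genes tested were. In T or NK-like cells 1 of 9 and 0 of 6 were called higher, where 4.84% of all genes tested were. In endothelial-like cells it was 1 of 4 and 0 of 4, where 5.05% of all genes tested were called higher.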

How the data were processed

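Each library was deposited as a sparse matrix of UMI counts, unscaled, by gene and barcode. The submitters' processing notes list CASAVA 1.8, Cell Ranger 3.1.0 and Seurat 2.3.4 with no order. Which genome build and which annotation they used is not given in the sources used here. Groups came from the group label and replicate numbers from the titles.

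Cells were kept with at least 500 UMIs, 200 genes and at most 20% mitochondrial UMIs. Cells with a Scrublet score above 0.25 were removed, 1.74% to 2.79% per library; the automatic call marked 0% to 3.01%, so the score was set after seeing it. Of the cells removed from infarction libraries, 8.40% to 17.3% held at least 2 mitosis members. After scaling to 10000 UMIs, 2000 variable genes without cell cycle and histone genes were reduced to 30 components and clustered (scanpy 1.11.5, 15 neighbours, resolution 1.0) into 31 clusters. A cluster took the class with the most markers, at least 3, where a marker was found in 25% of cells and 1 log2 unit above the other cells. This scoring was set after the markers, and 3 clusters stayed unnamed.

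Counts summed per library and class were fitted with edgeR 4.0.16 (robust quasi-likelihood, TMM, filterByExpr) on all genes, in R 4.3.3, and the SE is the log2 change divided by the square root of F. Scripts were checked on simulated counts. Shares were compared by exact permutation over 20 assignments of the libraries. Alternatives were DESeq2 1.42.0, other factors, filters, clusterings and thinning, and each library left out.

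The members and lists were chosen with earlier results of these data known. In each role the 3 members with the highest mean level are given by library, with those at the ends of the role or against it. Intervals of shares cover counting error only. Same-numbered libraries correlated only weakly and no pairing is stated, so no block was used between groups in the main fits.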

Additional observations from a re-analysis of the deposited data

Results flagged for a closer look

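For 11 members the change after infarction differed between microglia-like and T or NK-like cells by the interaction of class and group in edgeR, with the library as a block. The values are log2 changes in microglia-like minus those in T or NK-like cells, with SE and adjusted p over all genes tested. Among the licensing and fork genes the difference was 1.11 for Pcna (SE 0.23, adjusted p = 0.0014), 2.04 for Gmnn (SE 0.35, adjusted p = 0.000272), 2.42 for Mcm2 (SE 0.45, adjusted p = 0.000615), 3.02 for Mcm3 (SE 0.31, adjusted p = 3.88e-07), 3.20 for Mcm4 (SE 0.51, adjusted p = 0.000117), 2.91 for Mcm6 (SE 0.33, adjusted p = 9.78e-07) and 2.24 for Mcm7 (SE 0.38, adjusted p = 0.000229). For the cyclin genes it was 5.94 for Ccne1 (SE 0.97, adjusted p = 0.00028) and 3.70 for Ccna2 (SE 1.02, adjusted p = 0.0142). For Prc1 it was 1.97 (SE 0.62, adjusted p = 0.0334), and for Aurka it was -2.21 (SE 0.45, adjusted p = 0.00121). Ccne1, Ccna2, Mcm4, Prc1 and Aurka were too low to test in T or NK-like cells alone, so their differences rest on low counts there. Across 10 settings, the 5 helicase genes, Gmnn and Aurka were called in each. Ccna2, Ccne1 and Pcna were called in 9, all but the setting without sham 2, and Prc1 in 6.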

How the results depend on the processing

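The 36 members called higher over all cells were 35 to 37 when each library was left out, and the 36 in microglia-like cells stayed at 36, while the call of Aurka as lower was lost without sham 3 and with doublets kept; within the Tmem119-led cluster alone they were 12 of 19 tested. In T or NK-like cells the 5 called higher became 17 with no low-count filter, 3 at 10% mitochondrial UMIs, 1 with doublets kept, 1 with a finer clustering, and 3 to 10 with each library left out. In border macrophage-like cells the 31 became 17 of 20 tested with cell cycle genes in the clustering and 25 to 33 with each library left out. In endothelial-like cells the 1 became 2 with no filter and 2 with doublets kept. The interaction's 10 became 7 to 18 with each library left out, 18 without infarction 3. The cause of these shifts was not tested. With the replicate number as a block, 36 members were called higher over all cells, 36 in microglia-like, 28 in border macrophage-like, 5 in T or NK-like and 1 in endothelial-like cells. Same-numbered libraries correlated at 0.021, -0.058 and 0.111 over all cells, and differently numbered ones at -0.102 to 0.118. In microglia-like cells the values were 0.079, 0.110 and 0.016, against -0.120 to 0.030. So few and weak correlations cannot settle whether the numbers pair the libraries.

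Against oligodendrocyte-like in place of neutrophil-like cells, whose own members are high, the counts higher were 7 for microglia-like, 2 for border macrophage-like and 0 for T or NK-like, dendritic-like and both unnamed clusters, and the counts lower were 36 for monocyte-like and 31 for endothelial-like cells. With cell cycle genes in the clustering, border macrophage-like cells had 15 higher and 4 lower than neutrophil-like cells, and dendritic-like cells 6 higher and 13 lower, so that their balance of calls turned. With a finer clustering, monocyte-like cells had 5 lower and 19 higher, the other way round from 18 and 0, and phagocytic macrophage-like cells 13 lower and 4 higher. The endothelial-like Mki67 share difference of 0.614 percentage points ranged from -0.498 to 1.17 with each library left out, and reversed without infarction 1. Stmn1 over all cells reversed to -0.17 at 10% mitochondrial UMIs.

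The mean balance over all sham cells, 0.76, was 0.423 as a mean over members, 0.0062 without the top member of each side and 0.341 at 10% mitochondrial UMIs; over infarction cells, 0.0565, it was -0.417 without the top members. In sham microglia-like cells, 0.167, it was -0.515 without the top members and 1.01 without Aurka. In border macrophage-like cells it was 2.46 in sham and 1.33 in infarction libraries with cell cycle genes in the clustering. The alternatives for single clusters and without Aurka were chosen after seeing the data. Of 1616 values of single members, 1542 kept direction and side of the threshold, 72 lost the call, 1 gained it and 1 reversed. The endothelial-like fit at 10% mitochondrial UMIs and the oligodendrocyte-like class in the other clusterings, where the cluster led by Vgf and Gal took another name or none, were not run. Classes with few cells limit what could be seen: 21 members could not be tested in T or NK-like cells and 33 in endothelial-like cells.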
